A study of Mus musculus with 6 samples.

Results

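The genes described here make, bind and break down the hyaluronan and versican matrix of the early heart. They were chosen by name: the hyaluronan synthases Has1, Has2 and Has3, the precursor enzyme Ugdh, the proteoglycan Vcan (versican), the link protein Hapln1, the receptor Cd44, and the hyaluronidases Hyal1 and Hyal2. They and the lists of related genes below were chosen with earlier results of these data known. Their shares of called genes are therefore descriptive and are no test of the set. Of these 9 genes, 8 were represented by at least 1 probe set annotated to them alone, out of 18193 genes so represented on the array. Hyal1 shared its probe sets with another gene and was not analysed here. The 8 genes had 22 probe sets in all, and for each gene the probe set with the highest mean over the arrays carries the reported value.

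Measurements came from 6 Affymetrix mouse arrays, 2 independent biological replicates for each of 3 tissues of embryonic day 9.5: the heart tube, the caudal-half tissue of the embryo and the yolk sac. All embryos were of a mixed background, no treatment was given, and fresh cells were sorted as CD31+/CD41-/CD45-, a surface profile that enriches endothelial cells. The descriptions carry the tag Wt, which is not explained further, and the number of embryos per array was not given in the sources used here. Levels are RMA values, read here as being on the log2 scale. If the deposited signals are instead linear, every difference below is 1.44 times larger on the log2 scale and no p-value changes. Probe sets for bacterial RNA, which no mouse cell makes, ran from 1.33 to 4.03 on this scale, and a level in that range is called background. Over 45037 probe sets other than controls, the arrays of 1 tissue correlated at 0.981 to 0.986 and those of different tissues at 0.946 to 0.969.

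Cardiac jelly is the extracellular matrix between the endocardium and the myocardium of the early heart tube. Hyaluronan, a long unsulphated sugar chain, is spun out at the cell surface by Has enzymes from UDP-glucuronic acid and UDP-N-acetylglucosamine. Versican, a chondroitin sulphate proteoglycan, binds hyaluronan at its N-terminal end, and link proteins hold that bond. Mouse embryos without Has2 or without versican lack cardiac jelly and form no endocardial cushions. Enzymes of the Adamts family cut versican, and hyaluronidases and endocytic receptors remove hyaluronan.

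In the sorted heart tube cells, Has2, Vcan, Hapln1 and Ugdh were higher than in the cells of both other tissues, and Cd44 was highest in the yolk sac. Of the 8 measured genes, 4 were higher and 0 lower in heart tube than in caudal-half cells at a limma adjusted p under 0.05, where 5.51% of all genes were called (2.86% higher and 2.65% lower). Against the yolk sac 4 were higher and 1 was lower, where 11.8% of all genes were called (5.14% higher and 6.67% lower). Between caudal-half and yolk sac cells 1 was higher and 1 lower, where 9.08% were called (4.22% higher and 4.86% lower). The median difference over the 8 genes was 0.59 for heart tube minus caudal-half cells, against -0.08 over all genes. It was 0.81 for heart tube minus yolk sac, against -0.06, and 0.07 for caudal-half cells minus yolk sac, against 0.02. The same 4 genes were called higher in heart tube than in both tissues, a pattern held by 306 of the 18193 genes (1.68%). Cd44 was called higher in yolk sac than in both other tissues, as were 3.18% of all genes, and Hapln1 lower there than in both, as were 1.78%. Markers of other cell types differed too: 7 of 16 cardiomyocyte and 8 of 12 mesenchyme markers were higher in heart tube than in caudal-half cells, and 8 of 10 visceral endoderm markers were higher in yolk sac than in heart tube. Their part in these results was not tested. The 3 comparisons share arrays, so they are not independent of each other. With 2 arrays a tissue, p-values rest on the spread between replicate arrays, pooled over the 3 tissues and moderated by that of all genes. In sorted bulk RNA, fewer cells of a type and less RNA per cell cannot be told apart.

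**Figure D1:**
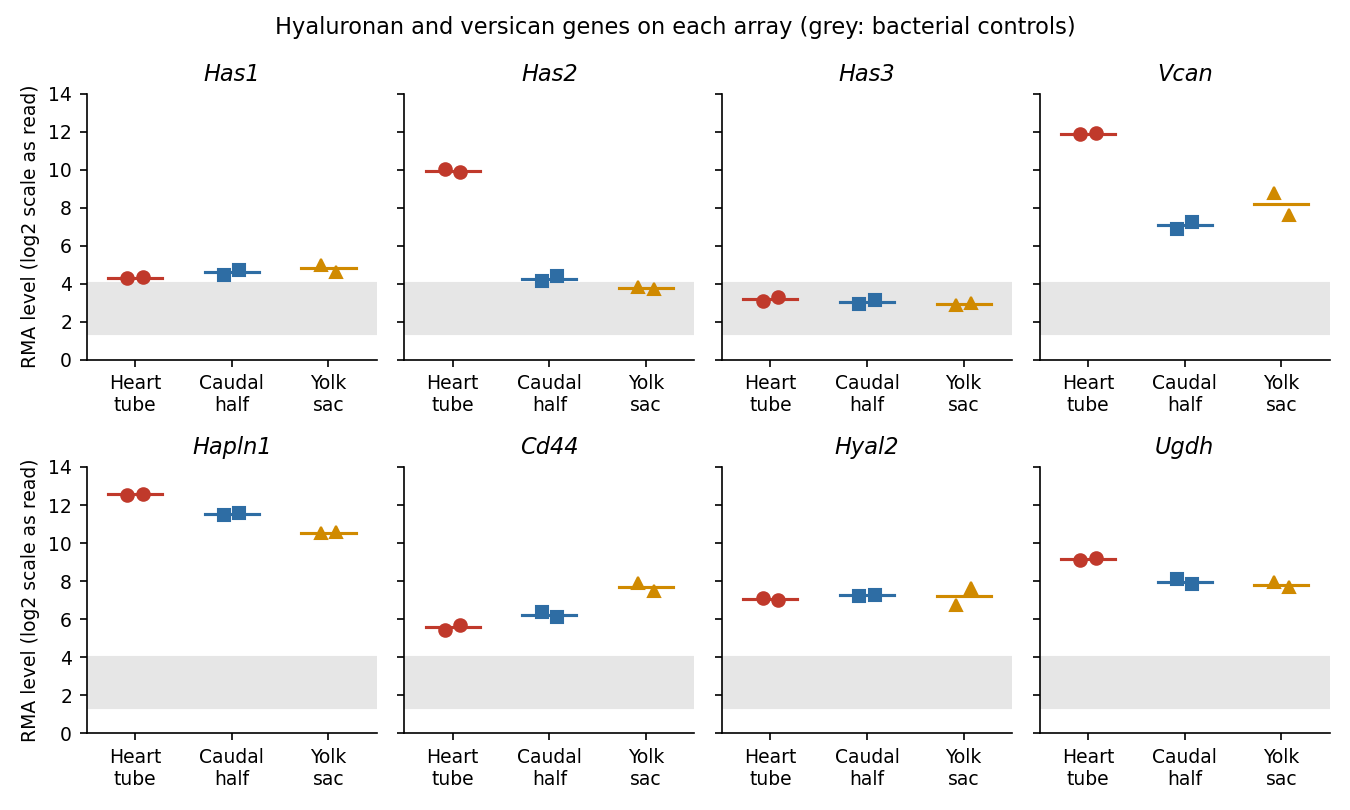
RMA level (log2 scale as read) of the 8 measured genes on each of the 6 arrays, by tissue, with the grey band marking the range of the bacterial control probe sets (1.33 to 4.03). Has2 lies near 10 on both heart tube arrays (10.03 and 9.85) and at or near the band elsewhere, while Hapln1 lies above 10 on every array.

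Promoter sequences were available for 7 of the 9 genes, all but Has2 and Has3, so the matches below say nothing of Has2. Those of Hapln1 and Ugdh, which were both higher in heart tube cells, are shown. That of Cd44, which was lower there than in the yolk sac, is shown with them. They come from RefSeq on GRCm38.p6, cover up to 250 bases before the annotated start, and are limited to the bases outside the longest model of the gene. Capitals mark matches, on either strand, to a GATA site (AGATAA) or an NFAT site (GGAAAA, read TTTTCC on the other strand).
Hapln1, chr13:89540386-89540528, plus strand: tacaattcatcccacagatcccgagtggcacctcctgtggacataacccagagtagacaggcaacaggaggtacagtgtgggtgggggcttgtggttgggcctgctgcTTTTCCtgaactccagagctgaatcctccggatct
Ugdh, chr5:65435843-65436092, minus strand: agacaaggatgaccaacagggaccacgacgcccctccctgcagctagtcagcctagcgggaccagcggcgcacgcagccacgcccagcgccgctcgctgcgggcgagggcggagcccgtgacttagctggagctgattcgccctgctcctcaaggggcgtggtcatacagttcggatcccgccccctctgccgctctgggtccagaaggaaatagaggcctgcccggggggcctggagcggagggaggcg
Cd44, chr2:102901670-102901915, minus strand: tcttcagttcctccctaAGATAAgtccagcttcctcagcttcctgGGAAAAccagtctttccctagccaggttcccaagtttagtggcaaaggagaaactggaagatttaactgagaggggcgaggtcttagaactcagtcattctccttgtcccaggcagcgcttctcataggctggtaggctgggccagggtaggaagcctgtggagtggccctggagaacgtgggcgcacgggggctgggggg
The Hapln1 stretch held 1 NFAT match, the Cd44 stretch 1 GATA and 1 NFAT match, and the Ugdh stretch none. Among 32851 windows of 250 bases before annotated starts, 20.4% held the NFAT letters and 9.99% the GATA letters. The T-box letters AGGTGT, in 11.8% of windows, were in none of the 7 windows of these genes. E-box letters (CANNTG), in 66.2% of windows, were in 3 of the 7, those of Has1, Hyal1 and Vcan. NFAT letters were in 3 of the 7, those of Hapln1, Cd44 and Has1, and GATA letters in 1, that of Cd44. The windows of Has1, Hyal2 and Vcan lie wholly inside the longest models of these genes, so their matches are not upstream of them, and they are not shown. The Hapln1 stretch has 143 bases, so the shares of 250-base windows are not matched to its length. A match is a description of letters and not a binding site.

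Among the synthases, Has2 set the heart tube apart. Has2, the enzyme that makes most hyaluronan of the embryonic heart, read 10.03 and 9.85 in heart tube cells, 4.12 and 4.38 in caudal-half cells, and 3.81 and 3.70 in yolk sac cells. Both heart tube arrays were far above the other 4, the caudal-half arrays lay just above the bacterial range, and both yolk sac arrays lay inside it. Heart tube exceeded caudal-half cells by 5.69 ± 0.18 (SE, n = 2 arrays a tissue, limma adjusted p = 0.000107), the 6th largest positive difference of all 18193 genes. It exceeded yolk sac cells by 6.18 ± 0.18 (limma adjusted p = 7.48e-05), but the yolk sac level is background, so that value is no exact difference. It was at least 6.02 with values below the highest bacterial control of their array raised to that control. The fold over caudal-half cells is 51.6 if the scale is log2, or 296 if the deposited signals are linear. Caudal-half and yolk sac cells differed by 0.49 ± 0.18, which did not pass the test (limma adjusted p = 0.157). The other Has2 probe set gave 7.27 and 7.49 in heart tube, 2.81 and 2.26 in caudal-half and 2.32 and 2.24 in yolk sac cells. Its differences for the heart tube, 4.85 and 5.10 over levels at background, had the same direction. Both were called among all named probe sets, of which 4.15% and 9.78% were called.

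Has1, which makes hyaluronan more slowly, read 4.28 and 4.35 in heart tube, 4.48 and 4.70 in caudal-half and 4.99 and 4.60 in yolk sac cells. All 6 arrays were within 1 unit of each other and just above the bacterial range, with the heart tube pair lowest. No difference was called: heart tube minus caudal-half cells was -0.27 ± 0.20 (limma adjusted p = 0.517) and heart tube minus yolk sac -0.48 ± 0.20 (limma adjusted p = 0.190). Has3, which makes shorter chains, read 3.07 and 3.27, 2.92 and 3.12, and 2.88 and 2.96 in the same order, all inside the bacterial range. Its level can therefore not be told from background in any tissue, and its largest difference was 0.25 (limma adjusted p = 0.431).

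Ugdh, which oxidises UDP-glucose to the UDP-glucuronic acid that hyaluronan and chondroitin chains both use, read 9.12 and 9.24 in heart tube cells. It read 8.10 and 7.84 in caudal-half and 7.95 and 7.68 in yolk sac cells. The heart tube arrays were above all others, and the arrays of the other tissues overlapped. Heart tube was higher than caudal-half cells by 1.21 ± 0.19 (limma adjusted p = 0.0179) and higher than yolk sac by 1.36 ± 0.19 (limma adjusted p = 0.00647), while caudal-half cells and yolk sac differed by 0.16 ± 0.19 (limma adjusted p = 0.689). The call against the caudal-half tissue was lost whichever of the 4 arrays compared was left out, with differences of 1.08 to 1.33 and adjusted p up to 0.109.

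**Figure D2:**
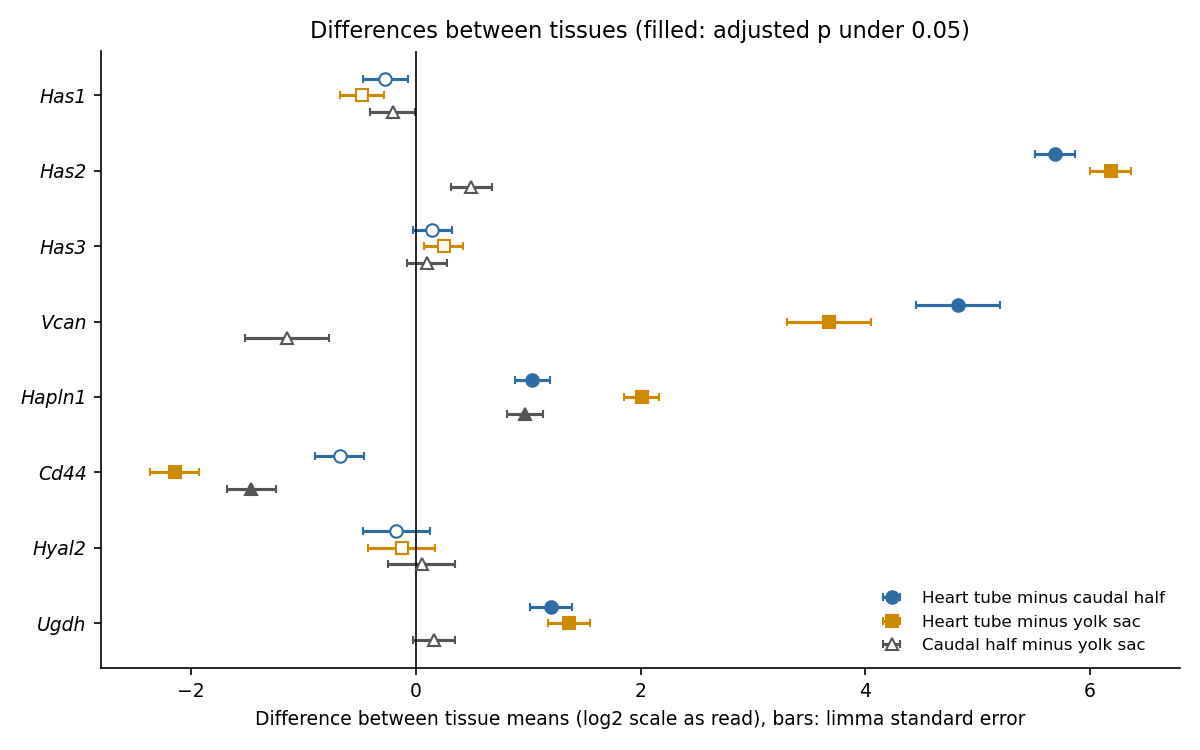
Difference in RMA level (log2 scale as read) for each of the 8 genes in the 3 comparisons, with bars for the limma SE and filled points for an adjusted p under 0.05. Has2 and Vcan stand to the right in both heart tube comparisons (5.69 and 4.83 against caudal-half cells), and Cd44 stands to the left against the yolk sac (-2.15).

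Vcan, the chondroitin sulphate proteoglycan that fills cardiac jelly together with hyaluronan, read 11.85 and 11.92 in heart tube, 6.87 and 7.25 in caudal-half and 8.79 and 7.62 in yolk sac cells. Heart tube arrays were the highest by over 3 units, and the yolk sac pair was the most spread (SD 0.82, against 0.05 in heart tube). That spread enters the SE of all 3 comparisons. The difference was 4.83 ± 0.37 against caudal-half cells (limma adjusted p = 0.00136, 8th largest of all genes). Against the yolk sac it was 3.68 ± 0.37 (limma adjusted p = 0.00209, 33rd largest). Folds were 28.4 and 12.8 if the scale is log2, or 125 and 39.6 if the signals are linear. Caudal-half cells were below yolk sac cells by a difference of -1.15 ± 0.37 that was not called (limma adjusted p = 0.122). Without yolk sac replicate 2 it was -1.73 and was called (limma adjusted p = 0.0242), and without yolk sac replicate 1 it was -0.56 and was not.

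Vcan had 8 probe sets, of which 5 were called higher in heart tube than in caudal-half cells, where 4.15% of all probe sets were called, and 6 higher than in yolk sac cells, where 9.78% were. All 7 others had the sign of the reported one in both heart tube comparisons, with differences over the 8 from 0.13 to 5.47 and from 0.02 to 4.13. A pair of them was in the bacterial range in every tissue, so the signs of that pair give no order. Between caudal-half and yolk sac cells, the 4 probe sets above background in every tissue were all lower in caudal-half cells, by differences of -1.15 to -2.23. The other 4 were at background in both tissues and give no order there. A probe set that read 3.88 and 4.55 in caudal-half and 6.59 and 6.31 in yolk sac cells was called lower in caudal-half cells (-2.23, limma adjusted p = 0.00676 among all probe sets with 1 symbol). The yolk sac arrays also changed order between probe sets. The reported one read 8.79 on replicate 1 and 7.62 on replicate 2, while the pair next in level read 7.64 and 8.28, and 7.08 and 8.03. Which versican transcript each probe set detects was not examined here.

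Hapln1, which locks versican onto hyaluronan, was high in every tissue. It read 12.52 and 12.59 in heart tube, 11.46 and 11.57 in caudal-half and 10.54 and 10.56 in yolk sac cells. The 3 pairs did not overlap and fell in that order. Heart tube was above caudal-half cells by 1.04 ± 0.16 (limma adjusted p = 0.0168) and above yolk sac by 2.01 ± 0.16 (limma adjusted p = 0.000828), and caudal-half cells were above yolk sac by 0.97 ± 0.16 (limma adjusted p = 0.0158). All 4 Hapln1 probe sets had the same order of tissues, with 3, 4 and 2 of them called in these comparisons. Of all probe sets, 4.15%, 9.78% and 6.92% were called. The 4 were read on the same arrays, so they are not independent of each other. The heart tube and caudal-half difference ranged from 0.98 to 1.09 with 1 array left out and was not called when any 1 of those 4 arrays was dropped (adjusted p up to 0.105). The caudal-half and yolk sac difference was likewise not called when any 1 of its own 4 was dropped (adjusted p up to 0.0776).

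**Figure D3:**
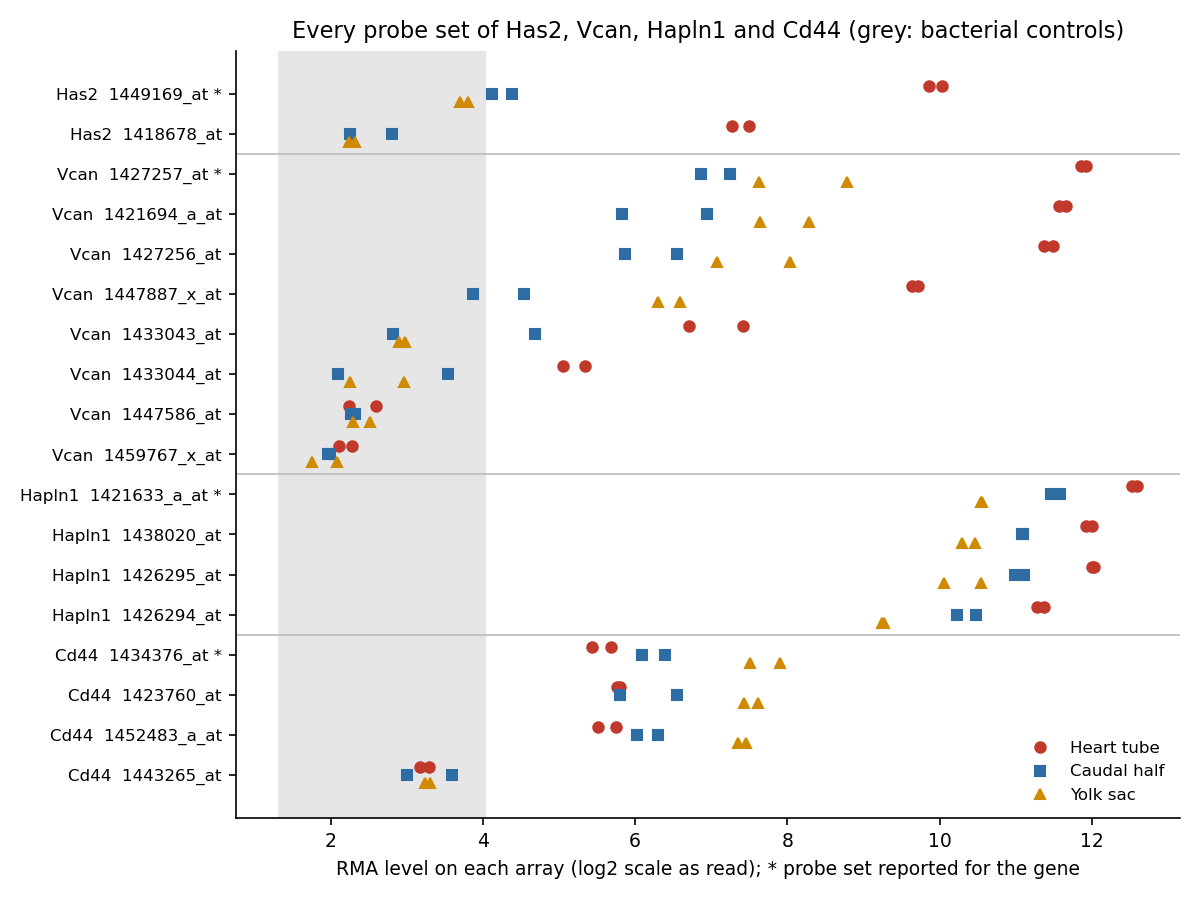
RMA level (log2 scale as read) of each probe set of Has2, Vcan, Hapln1 and Cd44 on the 6 arrays, with the reported probe set starred and the bacterial range in grey. The 4 Hapln1 probe sets run in parallel, whereas those of Vcan range from 11.9 down into the grey band in heart tube cells.

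Cd44, the main cell surface receptor for hyaluronan, had the opposite order. It read 5.44 and 5.68 in heart tube, 6.39 and 6.09 in caudal-half and 7.91 and 7.50 in yolk sac cells, with no overlap between tissues. Heart tube minus yolk sac was -2.15 ± 0.22 (limma adjusted p = 0.00212) and caudal-half cells minus yolk sac was -1.47 ± 0.22 (limma adjusted p = 0.0117). Heart tube minus caudal-half cells, -0.68 ± 0.22, was not called (limma adjusted p = 0.155). Of the 4 Cd44 probe sets, 3 were called lower in both comparisons with the yolk sac (background of calls 9.78% and 6.92%), and the other was in the bacterial range throughout. The mean of all 4 gave -1.42 for heart tube minus yolk sac. The caudal-half and yolk sac call was lost without caudal-half replicate 2 (limma adjusted p = 0.0663) or without yolk sac replicate 1 (0.0556).

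Hyal2, a hyaluronidase anchored at the cell surface, read 7.13 and 7.01 in heart tube, 7.22 and 7.26 in caudal-half and 6.74 and 7.65 in yolk sac cells. The 2 yolk sac arrays lay on either side of all 4 others. No difference passed the test: -0.18 ± 0.30 for heart tube minus caudal-half cells (limma adjusted p = 0.811), -0.12 ± 0.30 for heart tube minus yolk sac (0.839) and 0.05 ± 0.30 for caudal-half cells minus yolk sac (0.950). The sign against the yolk sac depended on which yolk sac array was kept.

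A further 78 genes of hyaluronan and chondroitin sulphate biology were read in 5 lists, of which 75 had a probe set of their own and 11 were at background in all 3 tissues. Between heart tube and caudal-half cells, 8 were higher and 3 lower, with a median difference of 0.07. Between heart tube and yolk sac, 8 were higher and 15 lower (median -0.13), and between caudal-half cells and yolk sac 1 was higher and 15 lower (median -0.25). These counts are 14.7%, 30.7% and 21.3% of the 75 genes, against the 5.51%, 11.8% and 9.08% of all genes. Of the 11, 23 and 16 calls, 4, 13 and 9 held whichever array was left out.

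Hyaluronan-binding proteins and clearance receptors were called mostly toward the yolk sac. Of 15, 1 was higher and 0 lower in heart tube than in caudal-half cells, 0 higher and 5 lower than in yolk sac, and 4 were lower in caudal-half cells than in yolk sac. These are 6.67%, 33.3% and 26.7% of the list against 5.51%, 11.8% and 9.08% of all genes, so the first is near the background of calls. Their median differences were -0.07, -0.49 and -0.72. The summed level of 10 visceral endoderm markers, 14.32 to 14.38 in yolk sac against 7.96 to 7.98 in heart tube cells, moved with this list, and its part in the result was not tested. Stab2, an endocytic receptor that clears hyaluronan, read 5.20 and 4.80 in heart tube, 5.70 and 6.23 in caudal-half and 11.76 and 11.74 in yolk sac cells. The yolk sac arrays exceeded the rest by over 5 units: heart tube minus yolk sac was -6.75 ± 0.24 (limma adjusted p = 8.31e-05) and caudal-half cells minus yolk sac -5.79 ± 0.24 (0.000243). Lyve1, a relative of Cd44 on lymphatic and some other endothelium, read 7.44 and 7.97, 7.92 and 8.19, and 13.06 and 12.87 in the same order. Its yolk sac level stood apart in the same way, by -5.26 ± 0.23 (limma adjusted p = 0.000138) and -4.91 ± 0.23 (0.000351). Stab1, the scavenger receptor related to Stab2, read 9.19 and 9.14, 10.04 and 9.81, and 10.95 and 11.01. It was lower in heart tube than in yolk sac by a difference of -1.82 ± 0.17 (limma adjusted p = 0.00148). Its caudal-half and yolk sac difference, -1.06 (limma adjusted p = 0.0148), lost its call without caudal-half replicate 2 or either yolk sac array (adjusted p up to 0.0746).

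Smaller changes in that list did not hold when arrays were left out. Itih3, a heavy chain that is transferred onto hyaluronan, was higher in heart tube than in caudal-half cells by 1.54 ± 0.24 (limma adjusted p = 0.0170). Its caudal-half level, 3.22 on both arrays, was background, and over the highest bacterial control the excess was at least 1.08. The call was lost without either caudal-half array or heart tube replicate 2 (adjusted p up to 0.0945). Habp2, a hyaluronan-binding protease, was lower than in yolk sac in heart tube (-0.79, limma adjusted p = 0.0258) and in caudal-half cells (-0.72, 0.0429). The first of these was not called when any 1 heart tube or yolk sac array was left out (adjusted p up to 0.123), and the second not whichever of the 6 arrays was left out (up to 0.159). Ambp, the precursor of bikunin, was at background in heart tube cells and differed by -1.69 ± 0.40 from yolk sac (limma adjusted p = 0.0432), or by -1.06 without yolk sac replicate 1, a call lost when any 1 array other than yolk sac replicate 2 was left out (adjusted p up to 0.190). Hmmr, an intracellular hyaluronan-binding protein of the mitotic spindle, read 7.62 and 7.67, 7.83 and 7.82, and 7.99 and 8.28 and was called in no comparison.

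Of 11 lecticans, link proteins and versican partners, 2 were higher in heart tube than in caudal-half cells and 3 higher than in yolk sac, with 0 lower in either, while 1 was higher and 1 lower in caudal-half cells than in yolk sac. These are 18.2%, 27.3% and 18.2%, against 5.51%, 11.8% and 9.08% of all genes. Their medians in the heart tube comparisons were -0.07 and -0.08, close to those of all genes, so the counts rest on a few genes. Fbln2, a fibulin that binds versican, read 6.71 and 7.13 in heart tube cells, 2.45 and 3.25 in caudal-half and 2.40 and 2.79 in yolk sac cells. Its levels outside the heart tube were at background, so its excess there is a lower bound: at least 3.24 and 3.06 over the highest bacterial control. As measured, the differences were 4.07 ± 0.32 (limma adjusted p = 0.00136) and 4.33 ± 0.32 (0.000600), and with the mean of its probe sets 2.06 and 2.30. Tnc, tenascin-C, a matrix glycoprotein that binds lecticans, read 9.31 and 9.27, 4.83 and 4.83, and 8.05 and 8.58. Its low level in the caudal-half tissue gave differences of 4.46 ± 0.21 for heart tube (limma adjusted p = 0.000324) and -3.49 ± 0.21 for caudal-half cells minus yolk sac (0.000593), the latter -1.78 with the mean of its probe sets. Its smaller heart tube excess over the yolk sac, 0.97 ± 0.21 (limma adjusted p = 0.0328), lost its call when any 1 array other than yolk sac replicate 2 was left out (adjusted p up to 0.147). Fbn2, a fibrillin of elastic microfibrils, read 10.89 and 10.93, 10.36 and 10.41, and 8.54 and 8.57. It was low in the yolk sac, with differences of 2.35 ± 0.16 (limma adjusted p = 0.000411) and 1.83 ± 0.16 (0.00181), and was not called between heart tube and caudal-half cells.

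**Figure D4:**
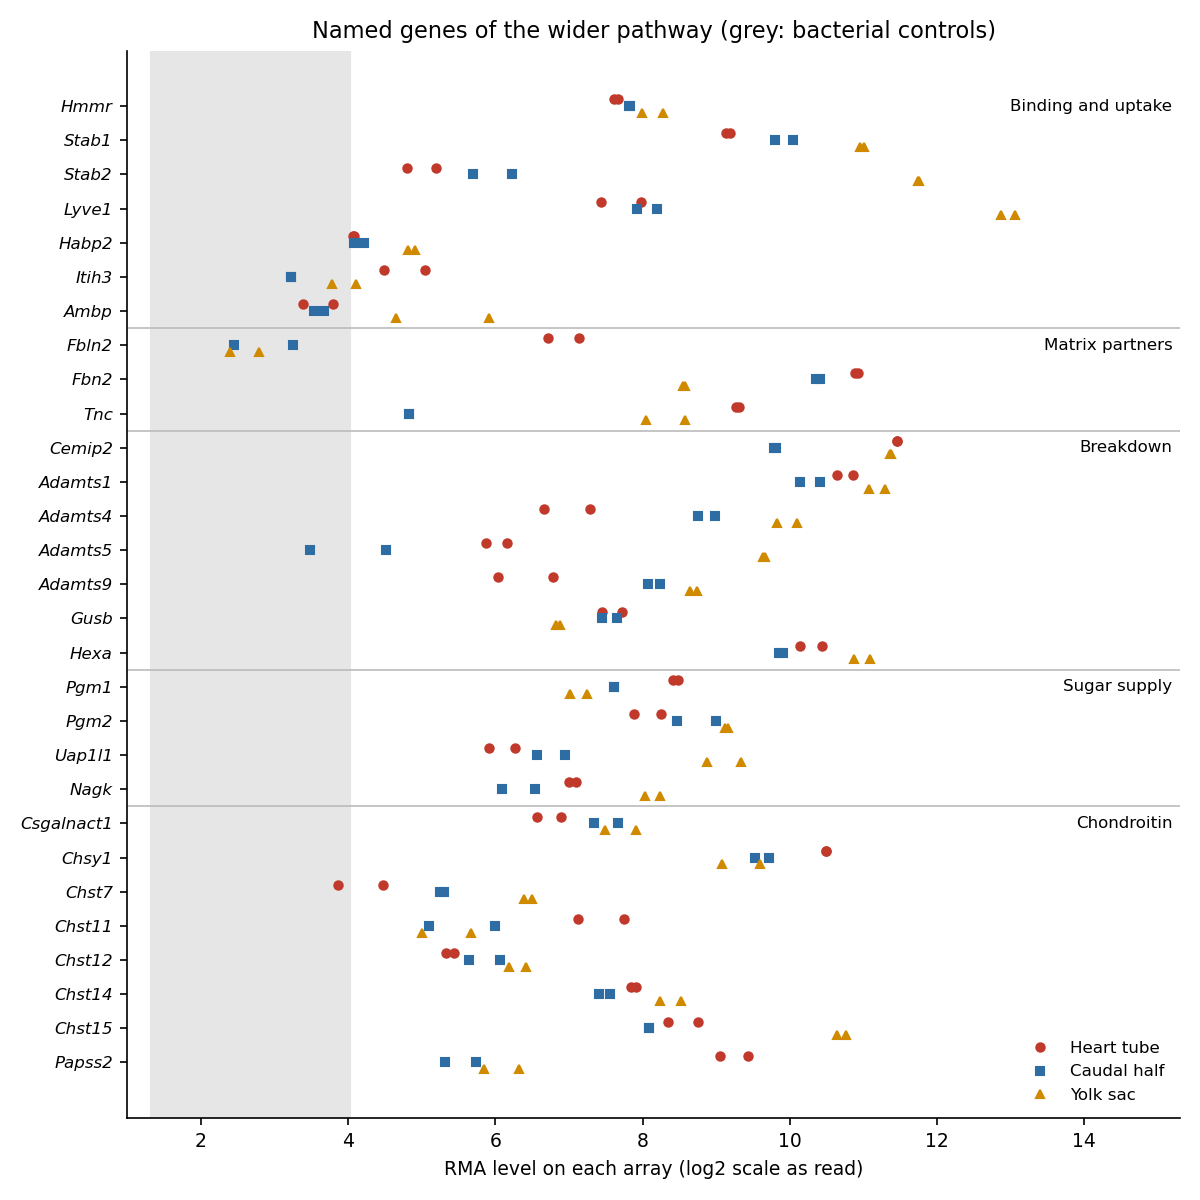
RMA level (log2 scale as read) of the named genes of the 5 lists on each of the 6 arrays, with circles for heart tube, squares for caudal-half and triangles for yolk sac cells, and the bacterial range in grey. Stab2 and Lyve1 lie far to the right in the yolk sac (11.76 and 13.06 on replicate 1), while Fbln2 leaves the grey band only in heart tube (6.71 and 7.13).

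Enzymes that cut versican or hyaluronan went in both directions. Of 13, 2 were higher and 2 lower in heart tube than in caudal-half cells, 1 higher and 3 lower than in yolk sac, and 5 were lower in caudal-half cells than in yolk sac. These are 30.8%, 30.8% and 38.5%, against 5.51%, 11.8% and 9.08% of all genes. Adamts5, a versican-cleaving protease, read 5.87 and 6.15 in heart tube, 3.48 and 4.51 in caudal-half and 9.64 and 9.67 in yolk sac cells. Its yolk sac level was the highest by over 3 units (-3.64 ± 0.33 for heart tube, limma adjusted p = 0.00143, and -5.66 ± 0.33 for caudal-half cells, 0.000539). Its mean in caudal-half cells was at background, and with values raised to the highest bacterial control these cells differed by -5.51 from yolk sac and heart tube exceeded them by 1.87. With the mean of its probe sets they differed by -3.51 and 0.98. Its excess in heart tube over caudal-half cells, 2.02 ± 0.33 (limma adjusted p = 0.0221), was no longer called without heart tube replicate 1 or 2 (adjusted p up to 0.125). Adamts4, a related protease, read 6.67 and 7.28, 8.98 and 8.75, and 9.83 and 10.10. Heart tube was lowest, by -1.89 ± 0.25 (limma adjusted p = 0.00989, but 0.0727 without caudal-half replicate 1) and -2.99 ± 0.25 (0.000982). Caudal-half cells minus yolk sac was -1.10 ± 0.25 (limma adjusted p = 0.0458), a call lost when any 1 caudal-half or yolk sac array was left out (adjusted p up to 0.179).

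Adamts9, which also cuts versican, read 6.04 and 6.79 in heart tube, 8.07 and 8.24 in caudal-half and 8.73 and 8.65 in yolk sac cells. It too was lowest in heart tube, by -1.74 ± 0.26 (limma adjusted p = 0.0165) and -2.28 ± 0.26 (0.00333), the latter -1.21 with the mean of its probe sets. The first call was lost without either caudal-half array or heart tube replicate 1 (adjusted p up to 0.0850). Adamts1, another versican protease, read 10.64 and 10.85, 10.14 and 10.41, and 11.08 and 11.29. It was called only for caudal-half cells minus yolk sac (-0.91, limma adjusted p = 0.0357), and that call was lost whichever of the 6 arrays was left out (adjusted p up to 0.158). Cemip2, a hyaluronidase of the cell surface, read 11.46 and 11.46, 9.78 and 9.81, and 11.36 and 11.38. Heart tube and yolk sac differed by 0.09, which was not called, and the caudal-half tissue was lower, by differences of 1.66 ± 0.15 (limma adjusted p = 0.00259) and -1.57 ± 0.15 (0.00294). Of the lysosomal enzymes, Gusb was higher in heart tube than in yolk sac by 0.73 (limma adjusted p = 0.0494, over the threshold whichever array was left out and up to 0.226). Hexa was lower in caudal-half cells than in yolk sac by a difference of -1.10 (limma adjusted p = 0.0176, over the threshold and up to 0.0901 when any 1 caudal-half or yolk sac array was left out).

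Among 13 genes of UDP-sugar supply, 1 was higher in heart tube than in caudal-half cells and 1 higher and 3 lower than in yolk sac, while 2 were lower in caudal-half cells than in yolk sac. These are 7.69%, 30.8% and 15.4%, against 5.51%, 11.8% and 9.08% of all genes, so the first is near the background of calls. Pgm1, a phosphoglucomutase that feeds UDP-glucose synthesis, read 8.48 and 8.42 in heart tube, 7.61 and 7.62 in caudal-half and 7.25 and 7.01 in yolk sac cells. Like Ugdh it was highest in heart tube, with 1.32 ± 0.17 over the yolk sac (limma adjusted p = 0.00490). Its excess over the caudal-half tissue, 0.84 ± 0.17 (limma adjusted p = 0.0420), lost its call whichever of the 6 arrays was left out (adjusted p up to 0.203). Uap1l1, a relative of the enzyme that makes UDP-N-acetylglucosamine, read 5.91 and 6.26, 6.56 and 6.95, and 8.88 and 9.34. It was highest in the yolk sac, by -3.02 ± 0.25 (limma adjusted p = 0.000926) and -2.35 ± 0.25 (0.00373). Nagk, which salvages N-acetylglucosamine, was also highest there, with a caudal-half difference of -1.82 (limma adjusted p = 0.00489) and a heart tube difference of -1.09 (0.0211). The heart tube call of Nagk, and that of Pgm2 (-1.08, limma adjusted p = 0.0334), was lost when any 1 heart tube or yolk sac array was left out (adjusted p up to 0.114 and 0.170).

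Of 23 genes of chondroitin sulphate synthesis, the chains that versican carries, 2 were higher and 1 lower in heart tube than in caudal-half cells. Against the yolk sac 3 were higher and 4 lower, and 3 were lower in caudal-half cells than in yolk sac. These are 13.0%, 30.4% and 13.0%, against 5.51%, 11.8% and 9.08% of all genes, so the last is near the background of calls. Papss2, which makes the sulphate donor, read 9.05 and 9.43 in heart tube, 5.31 and 5.73 in caudal-half and 6.33 and 5.84 in yolk sac cells. The heart tube stood about 3 units above both, by 3.72 ± 0.26 (limma adjusted p = 0.00107) and 3.16 ± 0.26 (0.000910). Chst11, a chondroitin 4-O-sulphotransferase, read 7.12 and 7.74, 5.99 and 5.10, and 5.67 and 5.01. It was higher in heart tube by 1.89 ± 0.39 (limma adjusted p = 0.0441) and 2.09 ± 0.39 (0.0185). The first call was lost whichever of the 6 arrays was left out (adjusted p up to 0.196) and the second without replicate 2 of heart tube or yolk sac (up to 0.102). Chsy1, which extends the chain, was higher than in yolk sac by 1.16 (limma adjusted p = 0.0196), but not without either heart tube array or yolk sac replicate 1 (up to 0.100).

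Chst15 and Chst7, both sulphotransferases, were highest in the yolk sac. Chst15, which adds a second sulphate to chondroitin 4-sulphate, read 8.34 and 8.75, 8.09 and 8.09, and 10.77 and 10.64. Both differences from the yolk sac were called, -2.15 ± 0.19 for heart tube (limma adjusted p = 0.00133) and -2.61 ± 0.19 for caudal-half cells (0.00113). Chst7, which adds sulphate at another position, read 3.87 and 4.47, 5.25 and 5.30, and 6.39 and 6.49. Heart tube minus yolk sac was -2.27 (limma adjusted p = 0.00205). Its differences of -1.11 between heart tube and caudal-half cells (limma adjusted p = 0.0462) and -1.17 between caudal-half cells and yolk sac (0.0286) lost their calls when arrays were left out. For the first that was any array other than heart tube replicate 2 (adjusted p up to 0.183), and for the second any caudal-half or yolk sac array (up to 0.126). Csgalnact1 (-0.97, limma adjusted p = 0.0444) and Chst12 (-0.92, 0.0359), lower in heart tube than in yolk sac, and Chst14 (-0.90, 0.0298), lower in caudal-half cells, also lost theirs. Csgalnact1 (adjusted p up to 0.209) and Chst14 (up to 0.135) did so whichever array was left out, and Chst12 (up to 0.162) when any 1 heart tube or yolk sac array was.

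The genes whose centred values were nearest to those of a member over the 6 arrays were found by the root mean square of the differences. For Has2, whose own SD over the arrays was 3.08, they were Bmper (0.26), a BMP-binding protein, Gata5 (0.37), a transcription factor of the heart, Ccdc141 (0.45), Epha3 (0.52) and Pdlim3 (0.59). Bmper averaged 8.11 in heart tube, 2.17 in caudal-half and 2.04 in yolk sac cells, and Gata5 9.48, 4.17 and 3.92. Bmper and Epha3 were at background in both tissues outside the heart tube, Ccdc141 in caudal-half cells, and Gata5 and Pdlim3 in yolk sac cells. Has2 was itself at background in yolk sac cells, where a match of background values says little. For Vcan (SD 2.29) they were Ltbp4 (0.39), Rnd2 (0.48), Ablim3 (0.50), Papss2 (0.50) and Mndal (0.57). Ablim3 and Mndal were at background in caudal-half and yolk sac cells. For Hapln1 (SD 0.90) they were Map1b (0.09), Tmtc4 (0.10), Serpinf1 (0.12), Mecom (0.12) and 6330403K07Rik (0.13). Has2 and Vcan differed from each other by 1.09 on this measure. These are 6 points from 3 tissues, and the 2 arrays of a tissue share its level.

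In the RefSeq gene table of GRCm38.p6, Hapln1 and Vcan are neighbours with no protein-coding gene between them. Of their outer neighbours, Edil3, beside Hapln1, averaged 7.07 in heart tube, 5.08 in caudal-half and 5.63 in yolk sac cells. Its heart tube differences of 1.99 and 1.44 were in the same direction as theirs but were not called (limma adjusted p = 0.0649 and 0.104). Xrcc4, a DNA repair gene beside Vcan, averaged 6.40, 6.62 and 6.55 and was not called. Of the genes beside Has2, Slc22a22 was at background, and Sntb1, a syntrophin, was lower in heart tube cells. Sntb1 differed by -1.50 from caudal-half cells (limma adjusted p = 0.0342) and by -1.92 from yolk sac (0.00832). The first call was lost without either caudal-half array, either yolk sac array or heart tube replicate 2 (adjusted p up to 0.164).

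The sorted cells were checked against cell type markers. For every marker list the shares of all genes called are the same. They were 2.86% higher and 2.65% lower for heart tube minus caudal-half cells, and 5.14% and 6.67% for heart tube minus yolk sac. For caudal-half cells minus yolk sac they were 4.22% and 4.86%. All 12 endothelial markers were above background in every tissue. In heart tube 1 was higher and 4 lower than in caudal-half cells, and 0 higher and 7 lower than in yolk sac, with a summed level of 13.20 to 13.36 in heart tube, 13.73 to 13.84 in caudal-half and 14.09 in yolk sac cells. The junction gene Cldn5 was lower in heart tube than in caudal-half cells (-3.40, limma adjusted p = 0.00131) and yolk sac (-3.54, 0.000612). Robo4, an endothelial receptor, was lower by differences of -2.31 (limma adjusted p = 0.00629) and -2.87 (0.00155). Cdh5, VE-cadherin, was lower in heart tube than in yolk sac (-0.87, limma adjusted p = 0.0166). Pecam1, the gene of CD31, was called in no comparison, and Ptprc, the gene of CD45, was at background. Itga2b, the gene of CD41, averaged 6.87, 6.61 and 8.28 in the same order and was lower in heart tube than in yolk sac (-1.41, limma adjusted p = 0.00687). Of 16 cardiomyocyte markers, 7 were higher in heart tube than in caudal-half cells and 9 higher than in yolk sac, with summed levels of 11.69 to 11.72, 9.69 to 9.77 and 8.84 to 8.88. Among them, Ryr2, Smpx and Nkx2-5 were at background in heart tube. Tnni1 differed by 3.97 from caudal-half cells and Tnnt2 by 5.38 from yolk sac. In both comparisons 0 were called lower, although Tnni3 differed by -0.71 from caudal-half cells (limma adjusted p = 0.224).

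Of 12 mesenchyme markers, 8 were higher in heart tube than in caudal-half cells, and 5 were higher and 4 lower than in yolk sac. Their summed levels were 12.77 to 12.84 in heart tube, 10.12 to 10.19 in caudal-half and 13.19 to 13.21 in yolk sac cells, with Lum and Dcn at background in heart tube. Sox9 differed by 4.36 and Col3a1 by 3.53 between heart tube and caudal-half cells. Tcf21 was above background in heart tube cells and at background in both others. Against the yolk sac, Lum differed by -5.70 and Col1a1 by -4.55, and both were called lower in heart tube cells. All 6 epicardium markers were at background in heart tube, with summed levels of 5.90 to 6.18 there, 6.27 to 6.79 in caudal-half and 8.09 to 8.12 in yolk sac cells. The yolk sac sum was mainly Upk3b, which averaged 7.70 there and was the only marker of this list called in any comparison. Tbx18, Aldh1a2 and Aldh1a1 were at background in yolk sac. Of 10 visceral endoderm markers, 8 were lower in heart tube and 8 lower in caudal-half cells than in yolk sac, with summed levels of 7.96 to 7.98, 8.18 to 8.46 and 14.32 to 14.38. Ttr read 4.81 and 4.90, 4.46 and 4.50, and 12.31 and 12.53 in heart tube, caudal-half and yolk sac cells. Hnf4a averaged 4.13, 4.40 and 4.08 and was called in no comparison, and Foxa2 was at background in all 3 tissues. The part of endoderm cells in the yolk sac levels of Cd44, Stab2 and Lyve1 was not tested.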

How the data were processed

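The 6 samples were grouped by the tissue in their titles. The authors deposited 1 signal per probe set for 45101 probe sets, an intensity from RMA (affy package), per the submitters' processing notes. Tool versions and probe set definitions were not given in the sources used here. Deposited signals ran from 2.46 to 2172540, and their natural log, 0.899 to 14.6, has the range of RMA values on log2, so it was read as log2, with a linear reading as an alternative. The annotation gave 1 symbol to 34945 probe sets and several to 932, which were not used. For each of 18193 genes the probe set with the highest mean was tested by lmFit and eBayes of limma 3.58.1 (R 4.3.3), with tissue as the factor on all 6 arrays and no covariate. The 3 residual degrees of freedom were joined by 3.48 from the prior. Tests were two-sided, adjusted by Benjamini-Hochberg over all genes and called at an adjusted p under 0.05. The script was tested on simulated data. Summed marker levels are log2 of the sum of unlogged levels.

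The genes named are the members and up to 4 called genes with the largest difference per list, comparison and direction. Hmmr, Stab2, Lyve1, Adamts1, Adamts5 and Adamts9 are also named, as are the 5 genes most like Has2, Vcan and Hapln1. So are the genes beside these 3, the genes of the sort, and examples from each marker list. The members and lists were chosen with earlier results of these data known. The alternatives, 16 settings per comparison, were another scale, normalization, filter, floor, probe set rule, variance model, samples and block, and each array left out. Precision is limited by the 2 arrays per tissue, and the SE of a difference had a median of 0.21.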

Additional observations from a re-analysis of the deposited data

How the results depend on the processing

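The 11 calls of single members held in all 110 values under settings other than leaving out an array. The linear reading is among these settings, here and for the pathway genes below. It rescales all values alike and could change no call. With 1 array left out, 52 of 66 values held and 14 were no longer past the threshold, with 0 reversed. Leaving out 1 array in turn gave 2 to 4 called members for heart tube minus caudal-half cells, 5 to 5 for heart tube minus yolk sac and 0 to 2 for caudal-half cells minus yolk sac. Over the 5 lists it gave 5 to 8, 14 to 19 and 9 to 14 called genes, and over all genes 376 to 899, 936 to 1794 and 638 to 1155. Calls among the probe sets of the members numbered 33 over the 3 comparisons and 22 to 26 with 1 array left out. Where a tissue kept 1 array, that array was assumed to vary like the others. The values with 1 array left out include arrays of the tissue outside a comparison. Their loss can change the SE but not the difference. Of the 50 called pathway differences, 461 of 500 values under other settings and 198 of 300 with an array left out kept their call.

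Signs changed for values that had not been called. With a floor at the highest bacterial control, Has3 gave -0.24, -0.42 and -0.18 in the 3 comparisons, by construction, since all its levels lie below the floor, which is set per array. With a yolk sac array left out, Hyal2 ranged from -0.58 to 0.33 for heart tube minus yolk sac and from -0.41 to 0.51 for caudal-half cells minus yolk sac. Adamts9 gave 0.22 for caudal-half cells minus yolk sac with the mean of its probe sets, and the cause was not tested.

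With the replicate number as a block, 4, 5 and 2 members were called, as without it, with 8, 20 and 14 genes of the lists and 776, 1876 and 1356 of all genes. Same-numbered arrays did not deviate together (correlations of 0.05, 0.02 and -0.01), so the pairing was not used. Probe sets at background carry no order between tissues.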
